A study of Mus musculus with 21 samples.

Results

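Alx4, Prrx1, Prrx2, Msx1, Msx2, Irx1, Irx3, En1, Osr1 and Osr2 are 10 transcription factor genes that pattern the mesenchyme of the embryo, and they were followed here through the first steps of hair follicle formation in the dermis. They were chosen by symbol from the 20284 genes of the deposited single-cell table, with earlier results of these data known, and all 10 had a row there. The cells came from the dorsal skin of CD1 mouse embryos at embryonic day 15, and live cells sorted by flow cytometry into plates gave 9 single-cell libraries. The well names of the table fall into 4 populations of cells, namely Fb (dermal fibroblasts, 1371 wells) and the DC0, DC1 and DC2 stages of the dermal condensate (149, 152 and 151 wells). All 4 populations share the strain, the age and the tissue, with no genotype or treatment between them.

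The dermal condensate is a cluster of fibroblasts that gathers beneath the epidermal placode of a new hair follicle and becomes the dermal papilla, the signalling centre of the mature follicle. Homeobox proteins bind DNA through a homeodomain, and those named here fall into families: aristaless-like and paired-related factors (Alx4, Prrx1, Prrx2), Msx factors, which are classical targets of BMP signalling, Iroquois factors (Irx1, Irx3) and engrailed (En1), whose lineage marks much of the fibroblasts of the back skin. Osr1 and Osr2 are odd-skipped zinc finger proteins of embryonic connective tissue.

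Library 8 held 83.2% of the DC0 wells and 80.8% of the DC2 wells, library 9 held 80.3% of the DC1 wells, and neither held fibroblasts. Libraries 1 to 7 held all 4 populations, but with 2 to 8 wells of each condensate stage. Medians of 18509, 12773, 10469 and 8333 unique molecular identifiers (UMIs, each standing for 1 captured RNA molecule) were counted per well in Fb, DC0, DC1 and DC2, and the libraries held 1436924 to 6414137 UMIs each. Levels are UMIs per 1000000 of a population's summed UMIs in a library (CPM). The series text names clusters of cells as the source of the condensate stages, so genes that separate the populations may in part have defined them, and whether the well names follow those clusters is not stated. The labels do not define DC0. Nor do they say whether the libraries came from separate embryos, and what the p-values here rest on is the spread between libraries, which may be technical. All 17 condensate markers tested rose in condensate wells against fibroblasts (eGFP by 7.21, Sox18 by 6.97 and Dll1 by 6.79 on the log2 scale). Of 12 fibroblast markers 9 fell, with Lox at -5.14, Dcn at -2.59 and Col1a1 at -2.44, while Thy1 and Twist2 rose by 0.96 and 0.48. Such markers may have defined the populations, and the lists were chosen with earlier results known. They describe the named wells and are no separate check on the names.

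Promoter sequences are shown for the paired-related pair Prrx1 and Prrx2, of which only Prrx1 rose in the condensate by the test below. They are also shown for Irx3 and En1, which were lower there. RefSeq's table for GRCm38.p6 held 6 of the 10 genes, and each window runs from 250 bases before to 50 bases after the start that this table gives. The gene positions given further below come from another source, GENCODE M21. By those positions the Prrx2 and Irx3 windows lie wholly inside their genes. Both strands were searched for 4 motifs, namely the homeodomain core TAATTA, the box TATAAA that TBP binds, the so-called GC box GGGCGG, which Sp1 binds, and the core motif CTTTGA of the LEF and TCF factors. Capitals mark every match in the 4 windows.
Prrx1 (chr1:163313601-163313900, minus strand): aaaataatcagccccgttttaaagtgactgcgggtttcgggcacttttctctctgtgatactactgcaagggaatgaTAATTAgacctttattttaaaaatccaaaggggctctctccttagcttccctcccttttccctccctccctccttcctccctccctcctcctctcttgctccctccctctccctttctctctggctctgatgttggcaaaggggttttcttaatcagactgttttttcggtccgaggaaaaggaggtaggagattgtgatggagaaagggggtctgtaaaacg
Prrx2 (chr2:30845117-30845416, plus strand): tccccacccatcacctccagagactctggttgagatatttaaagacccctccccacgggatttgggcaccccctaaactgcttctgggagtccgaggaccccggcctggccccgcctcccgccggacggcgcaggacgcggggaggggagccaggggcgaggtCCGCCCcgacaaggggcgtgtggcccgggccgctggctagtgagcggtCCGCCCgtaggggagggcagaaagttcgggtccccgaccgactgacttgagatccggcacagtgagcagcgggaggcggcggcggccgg
Irx3 (chr8:91801605-91801904, minus strand): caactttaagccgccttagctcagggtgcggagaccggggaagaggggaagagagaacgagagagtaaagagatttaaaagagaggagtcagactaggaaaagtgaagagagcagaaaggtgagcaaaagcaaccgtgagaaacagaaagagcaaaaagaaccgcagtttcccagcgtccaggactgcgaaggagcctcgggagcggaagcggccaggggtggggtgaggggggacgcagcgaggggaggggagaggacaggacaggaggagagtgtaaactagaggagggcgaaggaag
En1 (chr1:120602237-120602536, plus strand): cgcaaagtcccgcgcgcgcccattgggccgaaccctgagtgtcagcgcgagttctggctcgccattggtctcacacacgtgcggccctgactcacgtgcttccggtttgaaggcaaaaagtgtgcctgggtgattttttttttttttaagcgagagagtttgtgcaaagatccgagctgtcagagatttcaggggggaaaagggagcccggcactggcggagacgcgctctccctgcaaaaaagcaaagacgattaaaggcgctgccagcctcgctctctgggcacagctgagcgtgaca
The Prrx1 window held 1 TAATTA, a string found in 5.29% of all 32851 promoter windows of the table, and no GC box. The Prrx2 window held 2 GC boxes, written as CCGCCC where they lie on the other strand, and 35.7% of all windows hold at least 1. G and C made up 47.7% of the Prrx1 window and 70.3% of the Prrx2 window, with a median of 52.7% over all windows. The Irx3 and En1 windows held none of the 4 motifs, of which TATAAA and CTTTGA occur in 13.6% and 16.0% of all windows.

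The first comparison set all condensate wells of a library (DC0, DC1 and DC2 summed) against its fibroblast wells, using libraries 1 to 6, where both sums held 10 wells or more. Alx4 and Prrx1 rose in the condensate, and Irx1, Irx3, En1, Osr1 and Osr2 fell, so 7 of the 8 members tested passed edgeR's quasi-likelihood test at an adjusted p of 0.05. Over all 9074 genes tested, 11.4% rose and 13.1% fell, against 2 and 5 of these 8. Alx4 met the filter for testing (a mean of 10 CPM) only through its condensate level. Its means were 68.1 CPM there and 4.27 CPM in fibroblasts, so its rise adds no support to that count. Msx1 and Msx2 had too few UMIs to be tested (mean under 10 CPM), and Prrx2 was tested and did not pass. Each condensate sum held 56832 to 380695 UMIs, against 2372569 to 6033442 UMIs in the fibroblast sums.

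**Figure D1:**
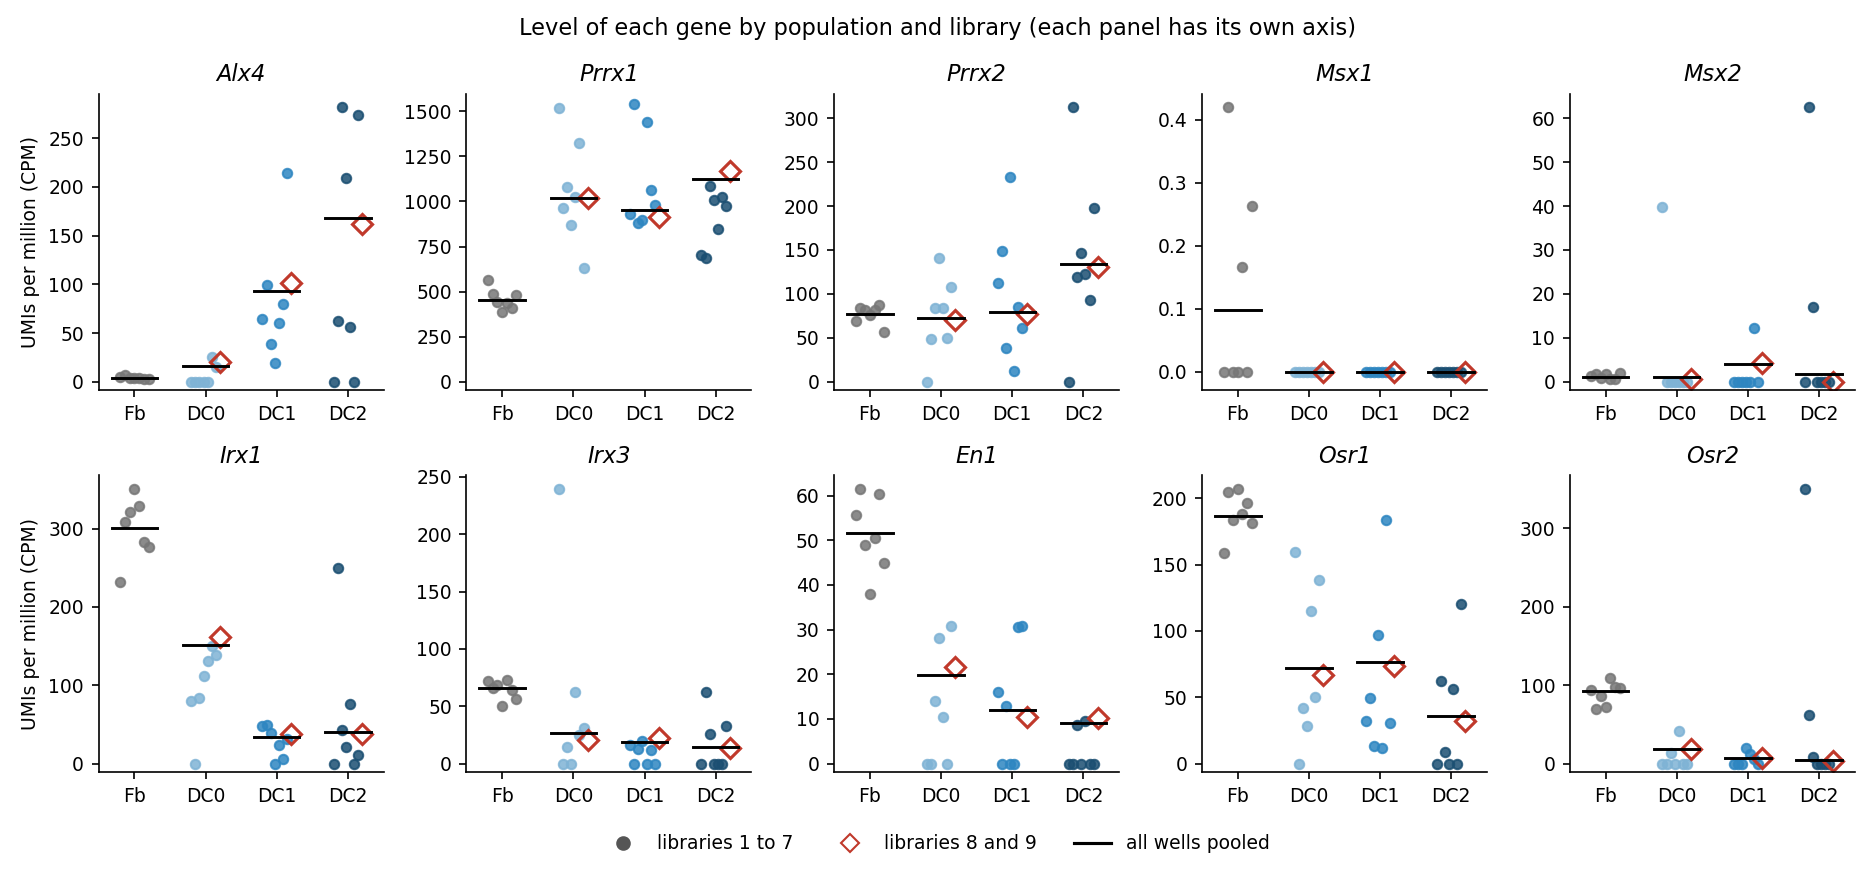
Level in CPM (vertical axis, a separate linear scale for each gene) in Fb, DC0, DC1 and DC2 wells (horizontal axis). Each filled point is 1 of libraries 1 to 7, open diamonds are libraries 8 and 9, which hold over 100 wells of a stage, and the bar pools all wells of the population. Alx4 climbs over the stages to 168.5 pooled CPM in DC2, while the fibroblast points lie above nearly all condensate points for Irx1, En1, Osr1 and Osr2.

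Alx4, an aristaless-like homeobox gene of limb and craniofacial mesenchyme, lies at chr2:93642384-93681339 (mm10, plus strand). Condensate sums gave 44.3, 52.8, 135.4, 81.6, 28.9 and 65.3 CPM in libraries 1 to 6, against 4.71, 6.74, 3.88, 3.48, 3.48 and 3.34 CPM in fibroblast sums of the same libraries. Every condensate value lay above every fibroblast value. The means were 68.1 ± 37.6 CPM in condensate wells and 4.27 ± 1.31 CPM in fibroblasts (SD, n = 6 libraries), a log2 fold change of 3.91 ± 0.399 (SE, adjusted p = 2.23e-09, edgeR). The condensate values rest on 79 UMIs in all, and the fibroblast values on 108.

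Prrx1, a paired-related homeobox gene of skin and limb mesenchyme, lies at chr1:163245119-163313710 (minus strand). It was read most often of the members, with 1201 UMIs in the condensate sums and 12112 in the fibroblast sums. Its level was 1085.9, 1090.9, 1023.3, 927.5, 1066.5 and 1110.6 CPM in condensate wells, against 562.1, 487.2, 443.6, 385.4, 434.4 and 409.6 CPM in fibroblasts. The groups did not overlap, and the condensate libraries lay within a narrow band of their mean of 1050.8 ± 67.3 CPM (453.7 ± 63.2 CPM in fibroblasts, SD, n = 6 each). The log2 fold change was 1.13 ± 0.112 (SE, adjusted p = 1.25e-09, edgeR).

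Prrx2, its paralog at chr2:30834972-30881251 (plus strand), had 77.6 to 178.1 CPM in condensate wells (median 82.9), against 68.6 to 87.4 CPM in fibroblasts (median 81.9). The groups overlapped, with condensate higher in 4 of 6 libraries, and the log2 fold change of 0.23 ± 0.207 (SE) did not pass the test (adjusted p = 0.462, edgeR). Its interval, -0.17 to 0.64, does not hold the 1.13 estimated for Prrx1.

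Irx1, an Iroquois gene at chr13:71957921-71963723 (minus strand), was lower in the condensate in 6 of 6 libraries. It had 55.4, 88, 52.7, 37.1, 91.9 and 32.7 CPM in condensate wells, against 231.4, 308.1, 321.2, 350.6, 329.3 and 283.4 CPM in fibroblasts. The groups did not overlap (59.6 ± 25.1 CPM in condensate wells and 304.0 ± 42.0 CPM in fibroblasts, SD, n = 6 each), and the log2 fold change was -2.48 ± 0.198 (SE, adjusted p = 9.52e-12, edgeR). Irx3, at chr8:91798525-91802067 (minus strand), had 77.6, 17.6, 18.8, 7.42, 31.5 and 14 CPM in condensate wells, against 71.6, 66.2, 68.9, 50.2, 73.1 and 64.2 CPM in fibroblasts. Here the groups overlapped, because library 1 was higher in the condensate while the other 5 were lower, and the log2 fold change was -1.49 ± 0.308 (SE, adjusted p = 0.000371, edgeR). In libraries 1, 2 and 4 alone the Irx3 value was -1.10 and no longer passed (adjusted p = 0.226, edgeR). The antisense gene Irx3os (chr8:91800415-91807539, plus strand) overlaps Irx3 and had no row of its own, and whether strand was used in counting is not given in the sources used here, so their reads cannot be told apart.

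En1, the engrailed gene of the dorsal dermal lineage (chr1:120602418-120607992, plus strand), fell in the condensate in all 6 libraries. It had 0.0 to 23.3 CPM in condensate wells (median 9.48), with 13 UMIs in all, against 38.0 to 61.5 CPM in fibroblasts (median 53.1). The groups did not overlap, and the log2 fold change was -2.26 ± 0.367 (SE, adjusted p = 1.24e-05, edgeR).

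The odd-skipped genes fell together, Osr2 by more than Osr1 in the fit. Osr1 (chr12:9570116-9581500, plus strand) had 66.5, 35.2, 18.8, 44.5, 76.2 and 149.3 CPM in condensate wells, against 158.8, 204.8, 183.5, 207.0, 187.8 and 196.2 CPM in fibroblasts, and its log2 fold change was -1.60 ± 0.242 (SE, adjusted p = 4.49e-06, edgeR). Osr2 (chr15:35296098-35303305, plus strand) had 11.1, 17.6, 7.52, 7.42, 23.6 and 4.67 CPM in condensate wells, against 93.9, 70.0, 85.6, 71.8, 109.4 and 97.1 CPM in fibroblasts, and its log2 fold change was -2.96 ± 0.319 (SE, adjusted p = 6.8e-09, edgeR). Neither gene's groups overlapped. The Osr2 condensate values rest on 15 UMIs, with a single UMI in libraries 1, 2, 4 and 6.

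Msx1 (chr5:37820485-37824583, minus strand) and Msx2 (chr13:53466884-53473074, minus strand) were at the edge of detection. Msx1 had no UMI in any of the 452 condensate wells of the 9 libraries, which by a floor of 3 UMIs allows up to 1.56 CPM in DC0 and in DC1 and 1.71 CPM in DC2, and 3 UMIs in all fibroblast wells (0.0976 CPM, 95% exact Poisson interval 0.0201 to 0.285). Msx2 had 6 UMIs in the condensate sums of libraries 1 to 6, with 0.0 to 17.6 CPM, against 26 UMIs and 0.528 to 1.74 CPM in fibroblasts. It was higher in the condensate in 4 of 6 libraries, and in a fit without the filter on low counts its log2 fold change of 2.30 did not pass (adjusted p = 0.0837, edgeR). All intervals and floors here cover counting error only. A row named Msx1as, an antisense RNA, had 0 UMIs.

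Libraries 3, 5 and 6 carry the name of 1 sequencing run in the labels, as does library 7, which enters the stage comparisons only. Libraries 1 and 2 carry other run names, and for libraries 4 and 8 the labels give none. In the shared run alone, the log2 fold changes of Alx4, Prrx1, Irx1, Irx3, En1, Osr1 and Osr2 were 4.16, 1.23, -2.43, -1.70, -2.10, -1.41 and -2.96. In libraries 1, 2 and 4 they were 3.49, 0.96, -2.60, -1.10, -2.92, -2.08 and -3.00, and all but Irx3 passed in both. Prrx2 was at -0.12 in the shared run and at 0.70 in the others, and passed in neither.

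Ratios of paralogs within a sum do not depend on scaling or on transcript length once compared between populations. The log2 ratio of Prrx1 to Prrx2 UMIs was 3.31 ± 0.611 in condensate wells and 2.50 ± 0.281 in fibroblasts (SD, n = 6), higher in 6 of 6 libraries by a mean of 0.81, with differences of 0.683, 0.183, 1.106, 0.010, 1.324 and 1.542 in libraries 1 to 6. The largest differences, 1.106, 1.324 and 1.542, were all in libraries 3, 5 and 6 of the shared run. Libraries 1, 2 and 4 had 0.683, 0.183 and 0.010, so the mean comes mostly from that run. An exact two-sided sign-flip permutation test over the libraries gave p = 0.0312, the smallest that 6 libraries allow (0.0469 adjusted over the 3 pairs tested). Adding 1 UMI in place of 0.5 to each sum turned the value to 0.77 with an exact permutation p of 0.0625, since library 4 shows almost no difference. The log2 ratio of Irx1 to Irx3 was 1.22 ± 0.868 in condensate wells and 2.21 ± 0.353 in fibroblasts, lower in all 6 libraries, with a mean difference of -0.99 (exact permutation p = 0.0312, adjusted 0.0469). The condensate sums held 71 Irx1 and 29 Irx3 UMIs. In library 2 the counts were 5 and 1 in condensate wells, against 731 and 157 in fibroblasts. The sign of its difference (-0.341), on which the smallest p rests, depends on the 0.5 UMI added. Library 1 had the largest difference (-2.138). For Osr1 to Osr2 the ratios were 2.03 ± 1.299 and 1.12 ± 0.348 in condensate and fibroblast wells, with a difference of 0.91 that was positive in 5 of 6 libraries (exact permutation p = 0.156, adjusted 0.156). Msx1 to Msx2 had too few UMIs for a ratio.

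**Figure D2:**
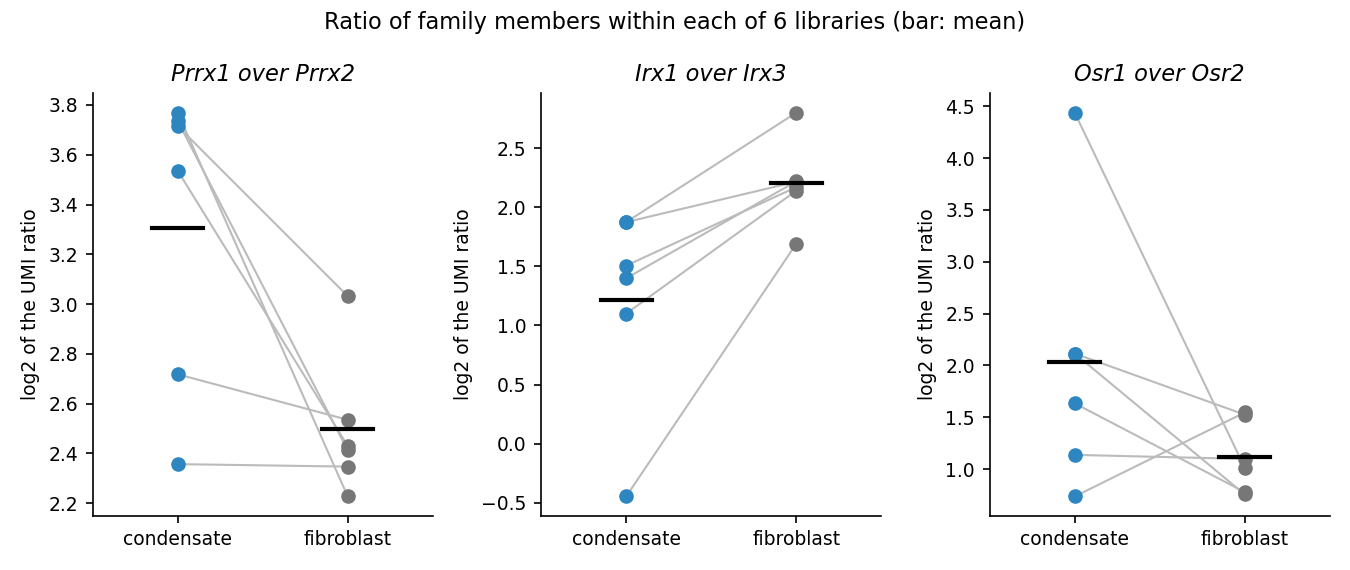
Log2 of the UMI ratio of 2 family members (vertical axis, a separate scale per panel) in condensate and fibroblast sums (horizontal axis), with a grey line joining the sums of 1 library and a black bar at the mean of 6 libraries. Prrx1 gains over Prrx2 in the condensate by a mean of 0.81, which comes mostly from libraries 3, 5 and 6 of the shared run. The ratio of Irx1 to Irx3 is lower in the condensate (-0.99), and the lines for Osr1 over Osr2 cross.

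The stages of the condensate were then compared in 1 model of all 4 populations over libraries 1 to 8. On simulated counts this model made more false calls than its threshold states and missed most small changes, so stage calls near the threshold are less certain than their adjusted p. Between DC0, the earliest named stage, and fibroblasts, Prrx1 rose and Irx1, En1, Osr1 and Osr2 fell, while Alx4, Prrx2 and Irx3 did not pass. That is 1 and 4 of 8 members, against 3.64% and 9.03% of all 9116 genes tested. The median log2 fold change of all genes in this comparison was -0.23 under the scaling used (TMM) and -0.053 under RLE, and the share of called genes that rose was 28.7% under TMM, 42.6% under RLE and 47.4% in DESeq2.

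Prrx1 in DC0 ranged from 631.5 to 1516.2 CPM over 8 libraries (median 1022.8), against 385.4 to 562.1 CPM in fibroblasts over 7 (median 443.6). DC0 was higher in all 7 libraries that hold both, by a log2 fold change of 0.83 ± 0.220 (SE, adjusted p = 0.0033, edgeR). Irx1 in DC0 ranged from 0.0 to 162.0 CPM (median 121.5), against 231.4 to 350.6 CPM in fibroblasts (median 308.1), lower in 7 of 7 libraries (log2 fold change -1.62 ± 0.298 SE, adjusted p = 4.75e-06, edgeR). So the highest DC0 library lay below the lowest fibroblast library for Irx1, and the lowest DC0 library above the highest fibroblast library for Prrx1.

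En1, Osr1 and Osr2 had log2 fold changes of -2.16 ± 0.528, -1.40 ± 0.325 and -2.47 ± 0.473 in DC0 against fibroblasts (SE, adjusted p = 0.00109, 0.000498 and 1.22e-05, edgeR). En1 and Osr2 were lower in 7 of 7 libraries and Osr1 in 6 of 7. Alone, the libraries of the shared run gave -1.97, -1.15 and -2.36, of which Osr1 missed the threshold (adjusted p = 0.0563, edgeR). The other libraries gave -2.92, -2.31 and -2.42, of which En1 and Osr2 missed it (adjusted p = 0.135 and 0.134, edgeR). Prrx1 had 0.99 and 0.60 in these 2 sets (adjusted p = 0.00456 and 0.494, edgeR), and Irx1 -1.49 and -1.96 (adjusted p = 0.00108 and 0.0242, edgeR).

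Alx4 was not shown to differ between DC0 and fibroblasts. In libraries 1 to 7 the 25 DC0 wells held 2 Alx4 UMIs, or 4.45 CPM (95% exact Poisson interval 0.539 to 16.1), against 3.87 CPM in fibroblasts (3.21 to 4.63). Library 8, with the rest of the DC0 wells and no fibroblasts, had 20.3 CPM (13.7 to 29.0). The log2 fold change was 1.23 ± 0.613 (SE, adjusted p = 0.2, edgeR) and -0.017 without library 8, so that DC0 value rests on that library.

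**Figure D3:**
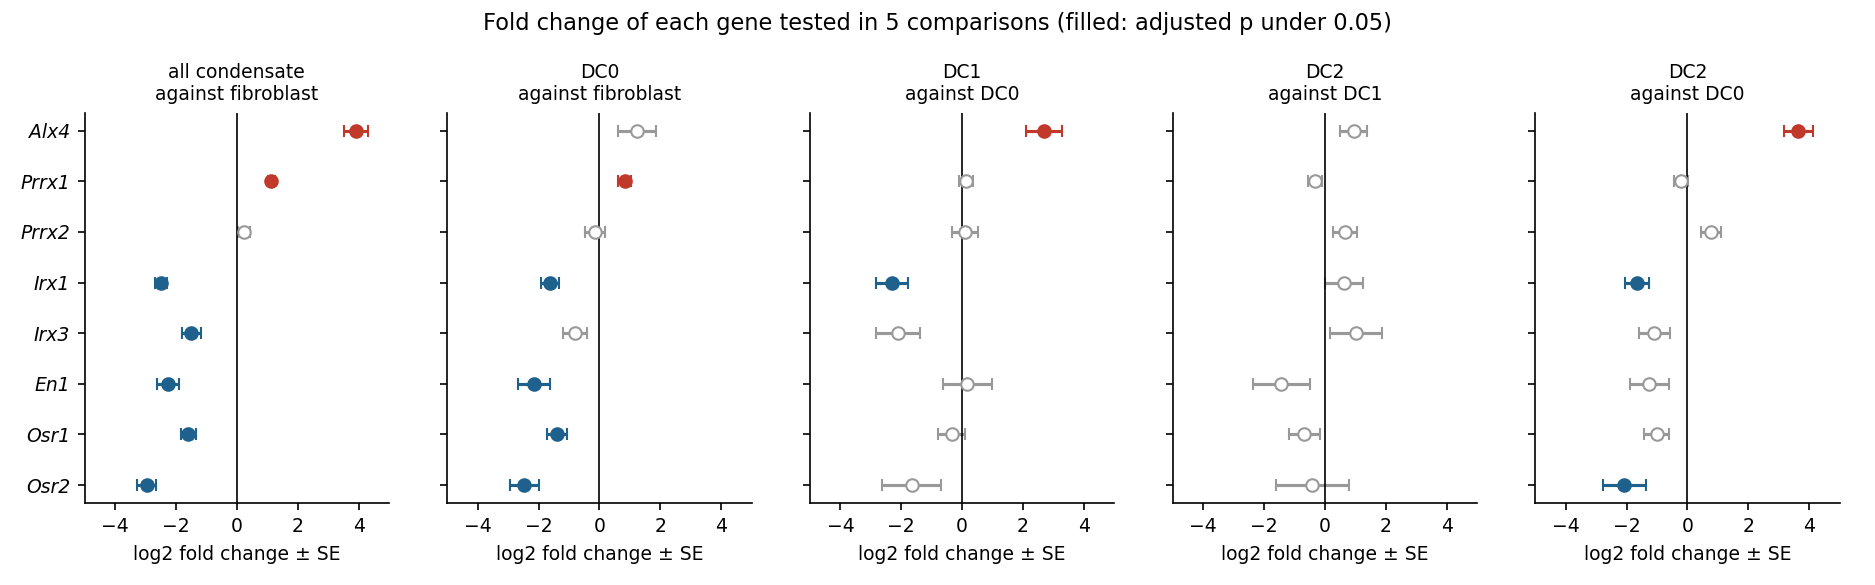
Log2 fold change with its SE (horizontal axis) of the 8 members tested (rows) in 5 comparisons (panels), filled where the adjusted p is under 0.05. Prrx1, Irx1, En1, Osr1 and Osr2 are already filled in DC0 against fibroblasts, and Alx4, filled in condensate against fibroblast, is open in DC0 against fibroblasts and filled in DC1 against DC0.

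Between DC1 and DC0, Alx4 rose and Irx1 fell, against 0.362% and 0.0987% of all genes. Alx4 met the filter of this model through DC1 and DC2, since its means in Fb and DC0 were 4.07 and 7.59 CPM. Prrx1, Prrx2, Irx3, En1, Osr1 and Osr2 did not pass, with Irx3 at -2.11 ± 0.732 (SE, adjusted p = 0.291, edgeR). Alx4 ranged from 19.4 to 214.8 CPM over 8 DC1 libraries (median 71.8), against 0.0 to 25 CPM over 8 DC0 libraries, of which 5 had no UMI. DC1 was higher in 7 of 7 libraries with both, with a log2 fold change of 2.69 ± 0.6 (SE, adjusted p = 0.00522, edgeR). Irx1 ranged from 0.0 to 49.7 CPM in DC1 (median 34.1), against a DC0 median of 121.5 CPM, lower in 6 of 7 libraries (-2.30 ± 0.519 SE, adjusted p = 0.0059, edgeR).

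Both of these calls rest on few wells. In the shared run alone Alx4 had 3.78 (adjusted p = 0.0605, edgeR) and Irx1 -2.57 (adjusted p = 0.0276, edgeR), and in the other libraries 2.29 and -1.61 (adjusted p = 0.678 and 0.789, edgeR). Without the replicate block the Alx4 value was 2.1 with an adjusted p of 0.0803 (edgeR). Irx1 did not pass without library 5 (-2.16, adjusted p = 0.068, edgeR) or without library 6 (-1.92, adjusted p = 0.102, edgeR). With at least 5 wells asked of each sum, the adjusted p was 0.917 for Alx4 at 2.05 and 0.162 for Irx1 at -2.89 (edgeR).

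Between DC2 and DC1 no member passed edgeR's test, against 0.384% of all genes that rose and 0.669% that fell. Only Alx4 had an unadjusted p under 0.05 (0.0286, log2 fold change 0.94 ± 0.428 SE, adjusted p = 0.359), and DESeq2 called none of the 4 members to which it gave an adjusted p. Alx4 ranged from 0.0 to 281.8 CPM over 8 DC2 libraries (median 112.2). It had no UMI in libraries 1 and 6, whose DC2 sums held 2855 and 10736 UMIs, and DC2 was higher than DC1 in 3 of 7 libraries. RLE and DESeq2 moved the share of called genes that rose in this comparison to 58.1% and 60.3%, from 36.5% under TMM.

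Between DC2 and DC0, Alx4 rose and Irx1 and Osr2 fell, 1 and 2 of 8 members, against 3.72% and 3.97% of all genes. Here too Alx4 was tested through its DC1 and DC2 levels. Alx4 had a log2 fold change of 3.63 ± 0.475 (SE, adjusted p = 1.92e-10, edgeR), with 4.72 in the shared run and 3.24 in the other libraries, both past the threshold. Irx1 had -1.67 ± 0.390 (SE, adjusted p = 0.00117, edgeR), lower in 7 of 8 libraries. The shared run gave -1.64 and the others -1.60 for Irx1, which did not pass there (adjusted p = 0.0713 and 0.278, edgeR), nor without library 8 (-1.29, adjusted p = 0.132, edgeR). Osr2 had -2.08 ± 0.701 (SE, adjusted p = 0.0455, edgeR), but it was lower in 3, higher in 2 and at 0 in both stages in 3 of 8 libraries. It passed in 10 of 19 other settings: without library 8 it was at -1.18 (adjusted p = 0.674, edgeR), without library 5 at -1.61 (adjusted p = 0.290, edgeR) and in DESeq2 at -0.98 (adjusted p = 0.57). The shared run gave -2.85 for Osr2 and the other libraries -1.64, with adjusted p of 0.325 and 0.694 (edgeR). Called genes that rose were 48.4% of all calls under TMM, 64.1% under RLE and 70.7% in DESeq2.

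The deepest look at the stages within 1 library is library 8, where DC2 and DC0 wells share a plate. With no second such library these values carry no test, and the 95% intervals cover counting error alone. Alx4 had 161.9 CPM in DC2 and 20.3 CPM in DC0, a ratio of 7.96 (5.42 to 12.1). Irx1 had 37.5 CPM in DC2 and 162.0 CPM in DC0, a ratio of 0.232 (0.168 to 0.315). Both intervals lay far from 1, on opposite sides.

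Prrx2, which did not pass in any comparison, had 130.2 CPM in DC2 and 69.8 CPM in DC0 in library 8, a ratio of 1.87 (1.45 to 2.4). Across libraries it was higher in DC2 in 7 of 8, with 1 library at 0 in both stages, and its log2 fold change of 0.77 ± 0.340 had an adjusted p of 0.177 (SE, edgeR). Prrx1, by contrast, had 1170.5 CPM in DC2 and 1021.4 CPM in DC0 there, a ratio of 1.15 (1.07 to 1.23), but was higher in 4 and lower in 4 of 8 libraries, with a log2 fold change of -0.21 (adjusted p = 0.719, edgeR). Osr1 had 32.4 CPM in DC2 and 66.4 CPM in DC0 (ratio 0.487, 0.333 to 0.702) and was lower in DC2 in 7 of 8 libraries, with a log2 fold change of -1.01 ± 0.404 that did not pass (SE, adjusted p = 0.116, edgeR). It passed without library 7 (-1.33, adjusted p = 0.0443, edgeR) and with at least 5 wells in each sum (-1.37, adjusted p = 0.0231, edgeR).

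En1 in library 8 had 10.3 CPM in DC2 and 21.7 CPM in DC0 (ratio 0.475, 0.234 to 0.916). Osr2 had 4 UMIs in DC2 and 27 in DC0 (ratio 0.161, 0.0409 to 0.462), and Irx3 had 18 and 30 UMIs (ratio 0.651, 0.342 to 1.21). The Irx3 interval holds 1. The DC1 wells of library 9, a separate plate with no other stage, had 100.9 CPM of Alx4, 912.4 CPM of Prrx1, 37.6 CPM of Irx1, 73.8 CPM of Osr1 and 7.66 CPM of Osr2.

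Pooled over all wells and libraries, the levels followed a few orders over the stages. The tests set beside them leave out library 9, which held 80.3% of the DC1 wells. Alx4 had 3.87, 16.6, 93.4 and 168.5 CPM in Fb, DC0, DC1 and DC2, and of the neighbours in that order only DC1 and DC0 differed by the test. Irx1 had 300.2, 151.2, 33.7 and 40.0 CPM, with a difference by the test between DC0 and Fb and between DC1 and DC0 but not between DC2 and DC1. Prrx1 had 453.9, 1020.1, 954.6 and 1124.4 CPM, where the sole difference by the test between neighbours was that of DC0 and Fb.

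En1 had 51.7, 19.7, 11.9 and 9.14 CPM in Fb, DC0, DC1 and DC2, Osr1 had 187.0, 72.2, 76.3 and 36.0 CPM, and Osr2 had 92.3, 18.7, 7.26 and 4.0 CPM. For En1, Osr1 and Osr2 the sole difference by the test between neighbouring stages was that of DC0 and Fb. Irx3 had 65.7, 27.0, 19.2 and 14.3 CPM and Prrx2 77.6, 72.8, 78.9 and 134.2 CPM, and no neighbouring stages differed by the test for either. Libraries 8 and 9 weigh heavily in these pooled stage levels: in libraries 1 to 7 alone Alx4 had 4.45 CPM in DC0, Irx3 had 49, 10.2 and 17.9 CPM in DC0, DC1 and DC2, Irx1 had 22.4 CPM in DC1, and in DC2 En1 had 5.1 CPM and Osr2 7.65 CPM. Msx2 had 1.11, 1.04, 4.15 and 1.71 CPM, from 34, 2, 8 and 3 UMIs, with 2.23, 4.08 and 7.65 CPM in DC0, DC1 and DC2 of libraries 1 to 7.

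Per well, the changes appeared as shares of wells with a UMI. Since depth differed, each well was thinned to 3000 UMIs, which left out 216, 34, 13 and 64 shallower wells of Fb, DC0, DC1 and DC2. Alx4 was then found in 1.21%, 5.22%, 22.3% and 32.2% of Fb, DC0, DC1 and DC2 wells, against 7.44%, 14.1%, 48% and 43.0% without thinning. Irx1 was found in 57.6%, 26.1%, 7.19% and 8.05%, against 82.9%, 47.0%, 27.6% and 23.2% without thinning. Prrx1 was found in most wells of every population, with 70.0%, 89.6%, 87.8% and 93.1% after thinning and 86.5%, 88.6%, 92.1% and 75.5% before.

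Osr2 was found in 16.1%, 2.61% and 2.16% of thinned Fb, DC0 and DC1 wells and in 0 of 87 DC2 wells, which by a floor of 3 wells allows a share of up to 3.45%. Without thinning its shares were 40.8%, 9.4%, 7.89% and 3.97% of Fb, DC0, DC1 and DC2 wells. Osr1 was found in 38.7%, 17.4%, 16.5% and 6.9% of thinned wells, En1 in 13.3%, 5.22%, 4.32% and 4.6%, Irx3 in 15.8%, 6.09%, 3.6% and 6.9%, and Prrx2 in 20.3%, 27.0%, 21.6% and 31.0%. Before thinning those shares were 70.1%, 36.2%, 31.6% and 13.9% for Osr1, 47.3%, 14.8%, 11.8% and 6.62% for En1, 48.4%, 21.5%, 16.4% and 11.9% for Irx3, and 56.4%, 40.9%, 47.4% and 47.7% for Prrx2. The thinned shares of En1, Irx3 and Osr2 rest on 7 wells or fewer in each condensate stage, and no order between the stages was read from them. The wells named ERCC (for spike-in RNAs), with a median of 431 UMIs, measure RNA carried between wells. Prrx1 had a UMI in 14.6% of them (21 wells), Osr2 in 5.56% (8), Osr1 in 4.17% (6), Irx1 in 3.47% (5) and Alx4 in 1.39% (2). For Osr2 this lies above its unthinned share in DC2 (3.97%) and near that in DC1 (7.89%). Its low levels in DC1 and DC2 may therefore hold carried RNA, and the part of it was not tested.

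**Figure D4:**
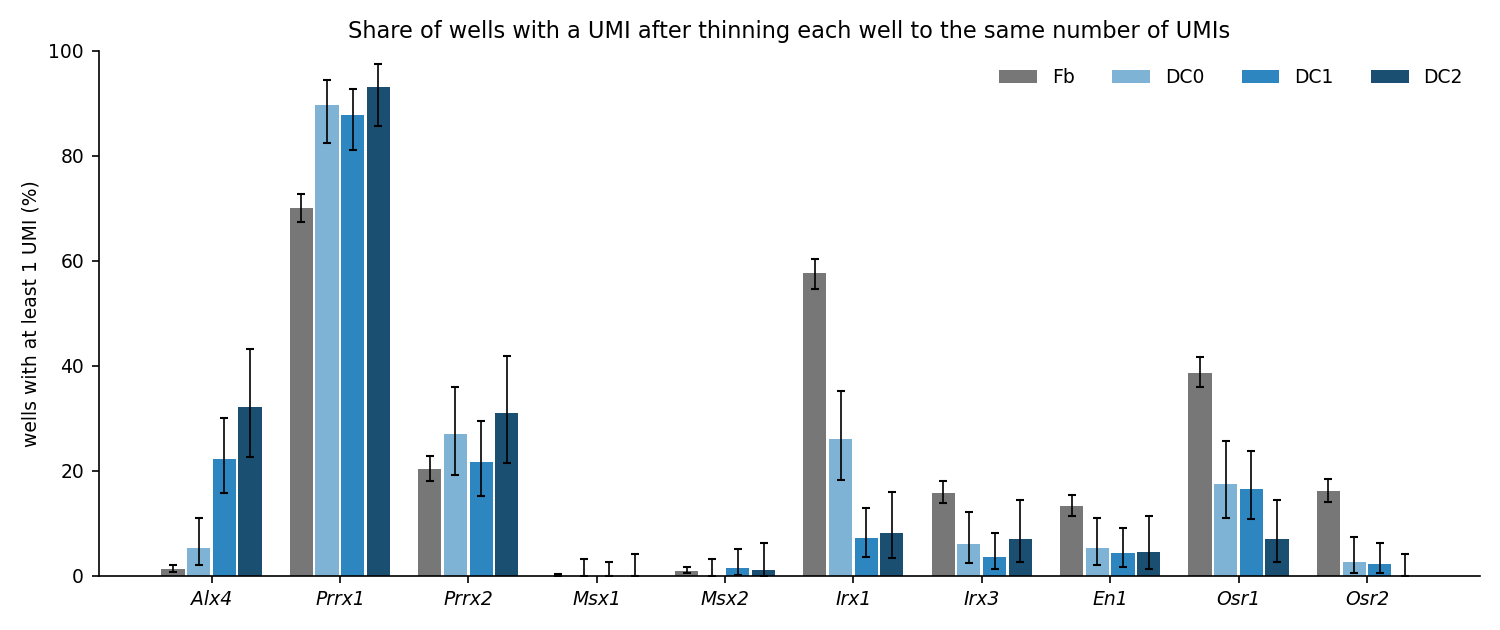
Percent of wells with at least 1 UMI (vertical axis) for each gene (horizontal axis) in Fb, DC0, DC1 and DC2 wells thinned to 3000 UMIs, with 95% exact binomial intervals that cover counting error only. Alx4 bars climb over the populations to 32.2%, Irx1 bars drop to 7.19% by DC1, and Msx1 and Msx2 bars lie at or near 0.

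Fibroblast wells were not uniform for these genes, and 1155 of them with at least 3000 UMIs showed which members lay together. Values were centred within each of 7 libraries, and the correlations below are a description across wells that share plates and depth. Irx1, Prrx2 and Irx3 went with markers of the upper dermis (10 genes, among them Crabp1 and the WNT targets Lef1 and Axin2), with Pearson's r of 0.534, 0.433 and 0.319. Osr2 went against them, with r = -0.551, and with markers of the lower dermis and fascia (11 genes, among them Dpt, Mfap5 and Dlk1), with r = 0.524. Irx1 and Prrx2 had -0.483 and -0.412 with the lower markers.

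The signs of those values for Irx1, Prrx2, Irx3 and Osr2 held in all 7 libraries, with r of 0.489 to 0.614 for Irx1 and -0.585 to -0.428 for Osr2 against the upper markers. In wells thinned to equal depth they were weaker, at 0.321 for Irx1, 0.229 for Prrx2, 0.166 for Irx3 and -0.339 for Osr2. Depth itself had r = -0.215 with Irx1 and 0.226 with Osr2. En1 showed little of either pattern (0.117 and -0.067), and Osr1 had -0.166 and 0.161, which were -0.0489 and 0.0593 in thinned wells. Among the members, Irx1 had r = 0.248 with Irx3, 0.228 with Prrx2 and -0.302 with Osr2, and Osr1 had 0.172 with Osr2.

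**Figure D5:**
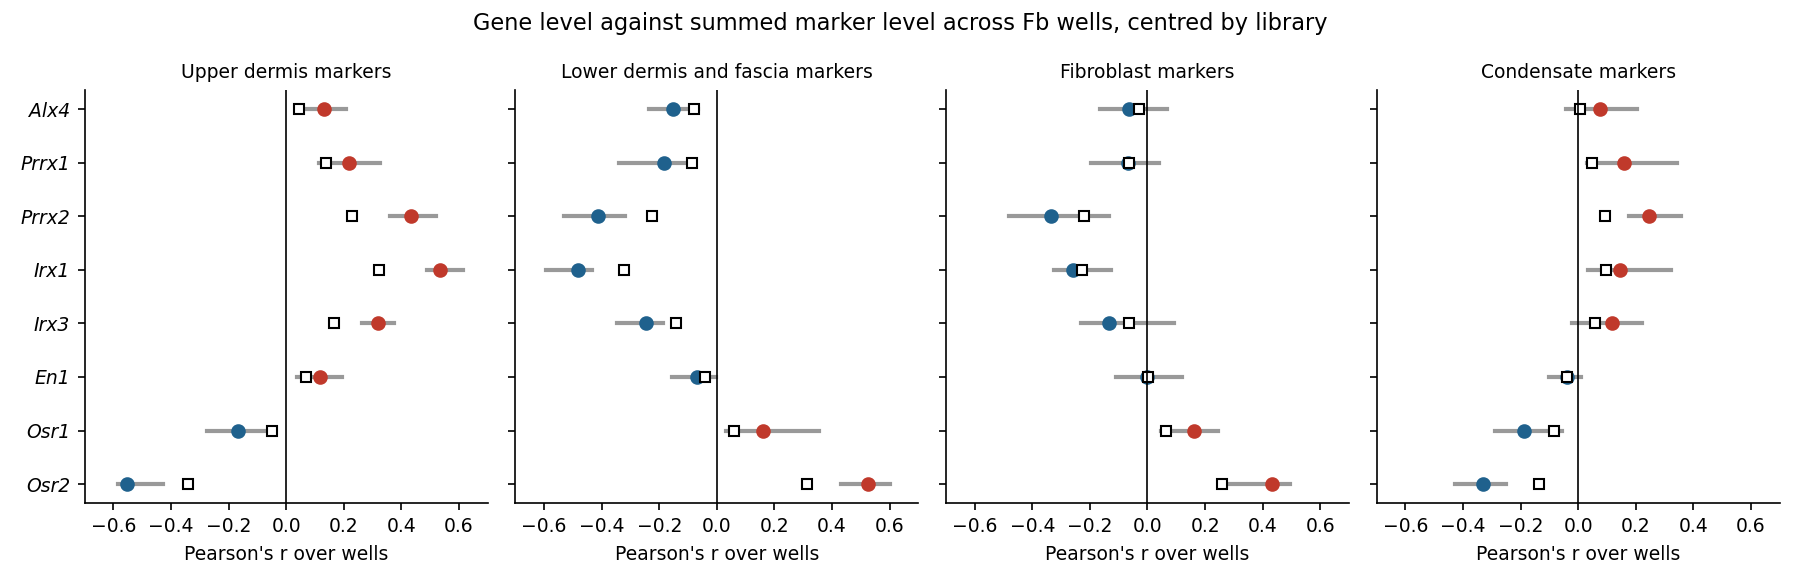
Pearson's r (horizontal axis) across 1155 Fb wells between each member (rows) and the summed level of 4 marker lists (panels). The coloured point pools the 7 libraries after centring, the grey line spans the values of single libraries, and the open square is the value in wells thinned to 3000 UMIs. Irx1 and Prrx2 lie to the right for upper dermis markers and to the left for lower dermis markers, and Osr2 does the reverse.

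Single genes were also ranked by their likeness to each member across those wells. Irx1 was most like Crabp1 (a retinoic acid binding protein of the upper dermis, r = 0.555), Zeb2 (0.472) and Twist2 (0.463), and Prrx2 most like Crabp1 (0.415), Bcl11b (0.4) and Tcf4 (0.373). Irx3 was most like Irx5, its neighbour in the Iroquois cluster (0.333), Crabp1 (0.326) and Tex15 (0.318). Osr2 was most like Agtr2 (an angiotensin receptor, 0.613), Dpt (0.554) and Dlk1 (0.554). Osr1 was most like Ptx3 (0.234), and Prrx1 most like Sept11 (0.261), Fgfr2 (0.243) and Twist1 (0.238). No gene reached 0.2 with Alx4 or En1. Crabp1 is itself in the upper list, and Dpt and Dlk1 are in the lower one.

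Across 16 sums of populations, which include the fibroblast and condensate sums of libraries 1 to 6, likeness follows the difference between populations. Osr2 was most like Igf2 (a growth factor of embryonic mesenchyme, r = 0.97), Ogn (0.969) and Col1a2 (0.968), and Irx1 was most like Osr2 (0.961), although the pair lay apart among fibroblast wells. Alx4 was most like Trim16 (0.968), Lrrtm2 (0.966) and Prom1 (0.965), and Prrx1 most like Col4a1, a basement membrane collagen (0.981), and Cd24a (0.972).

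Upper and lower dermis markers parted in the condensate too. All 9 lower markers tested fell in condensate wells against fibroblasts, with Ogn at -4.90, Dpt at -4.83 and Aspn at -4.78, and a median of -3.82 (log2), against a median of -0.01 over all genes tested. Of 10 upper markers 6 rose and none fell, with Prdm1 at 4.66, Cyp26b1 at 2.86 and Lef1 at 2.31, and a median of 1.10. Irx1 and Irx3 fell in the condensate while the list they went with among fibroblasts did not, and Osr2 fell as its list did. Prdm1 is also a condensate marker in these lists.

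Other homeobox genes of the same families were read from lists of family members. Of 14 aristaless- and paired-related genes 5 were tested, and 3 of them rose, namely Alx4, Prrx1 and Shox2, the last by 1.62 (log2, adjusted p = 0.00857, edgeR). The median of the 5 was 1.13, and Alx4 was among them only through its condensate level. All 4 Iroquois genes tested of 7 fell, Irx2 by 1.62 (adjusted p = 4.79e-07) and Irx5 by 0.61 (adjusted p = 0.0409) beside Irx1 and Irx3, with a median of -1.55. DESeq2 called 3 of these 4. Not tested were Irx6, with 8 UMIs in condensate and 12 in the larger fibroblast sums, Irx4 (0 and 36) and Mkx (0 and 21). Of 21 Msx, Dlx and related genes Emx2 alone was tested, and it fell by 3.56 (adjusted p = 2.41e-05, edgeR), with 3 UMIs in condensate wells and 774 in fibroblasts. It passed the filter through its fibroblast level, so its fall does not speak for the family. Dlx5, not tested, had 14 UMIs in condensate and 8 in fibroblast sums. The others not tested had at most 6 and 26.

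The BMP and WNT genes around Msx and En1 moved in both directions. Of 20 BMP pathway genes tested, 6 rose and 4 fell, with a median of 0.28, where 11.4% of all genes rose and 13.1% fell. The ligands Bmp7 and Bmp4 rose by 3.92 and 3.45 (log2), and the inhibitory Smad7 by 1.73. The target Id2 had -1.76 and the receptor Bmpr1a -0.69, while Msx1 and Msx2, classical BMP targets, stayed at the edge of detection in the same wells. Of 25 WNT genes tested, 10 rose and 4 fell, against those same shares, with a median of 0.52. Frzb, a secreted WNT antagonist, rose by 5.20, the agonist Rspo3 by 2.46 and the nuclear effector Lef1 by 2.31. The target Sp5 had -2.56, Sfrp2 -1.88 and the agonist Rspo1 -1.61, all past the threshold. The counts of these family and pathway lists were the same under RLE, and DESeq2 changed only the Iroquois count and the WNT rises (8 in place of 10).

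Markers of other cell types differed between the populations. Summed Schwann cell markers (7 genes) had 75.4, 193.0 and 83.4 pooled CPM in DC0, DC1 and DC2, against 17.4 CPM in Fb (8.92 to 27.1 over libraries), with Erbb3 and Cdh19 at 0 in DC1 and DC2. Cartilage markers (5 genes) had 104.5, 211.2 and 339.2 CPM in DC0, DC1 and DC2, against 42.3 CPM in Fb, with Matn1 at 0 in DC0 and DC1 and Acan at 0 in DC0. Keratinocyte markers (9 genes) had 75.4, 377.2 and 64.5 CPM, against 170.4 CPM in Fb, with Trp63 at 0 in DC0. Over libraries these lists spanned 0.0 to 255.4, 0.0 to 700.5 and 0.0 to 838.3 CPM in condensate sums. Melanoblast, pericyte, muscle, immune and adipogenic markers had lower pooled levels in all 3 condensate stages than in Fb. Endothelial markers (6 genes) had 5.72, 16.1 and 14.8 CPM in DC0, DC1 and DC2, against 13.1 CPM in Fb, with Cldn5 at 0 in DC0 and DC1 and Emcn at 0 in DC1 and DC2. The part of such cells in the members' values was not tested.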

How the data were processed

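Single cells of mouse dorsal skin were measured by SORT-seq, an automated CEL-Seq2, in 9 libraries, per the labels' protocols; the 12 bulk samples were not analysed here. The submitters' processing notes name mm10, BWA 0.6.2-r126, TopHat2 2.0.3, Bowtie2 and Cufflinks 2.1.1, with no role for any. The deposited table holds expected counts rather than raw UMIs: all 7480233 values above 0 equal a whole number of UMIs adjusted for chance collisions among 4096 barcodes (within 0.005). The design had assumed plain counts, so the values were first rounded, which changed 13.47% of them.

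UMIs were summed by population and library. edgeR 4.0.16 in R 4.3.3 (TMM, quasi-likelihood test) was fitted over all genes with a mean of at least 10 CPM in the sums, with the library as a block, and p-values were adjusted by Benjamini-Hochberg over all genes tested. The block pairs populations of 1 library, as the well names state. Condensate against fibroblast used libraries 1 to 6 (at least 10 wells a sum), and stages used libraries 1 to 8 (at least 2), since library 9 holds DC1 alone. SE is the absolute log2 fold change over the root of F. The fits were tested on simulated counts, where both missed most small changes and the stage fit made more false calls than its threshold states. The alternatives were RLE, DESeq2 1.42.0, other filters, well minimums and libraries. CPM intervals are exact Poisson and shares exact binomial (Clopper-Pearson), at 95%. Members that passed are named in every comparison, and not all that did not pass are given with values. Up to 3 rises and 3 falls per list were named by size, and up to 3 genes most like a member (r of at least 0.2 over wells with log2(1 + UMIs per 10000), or over sums with log2(CPM + 10)). Positions are from GENCODE M21. A few genes that these rules name are not reported here. The members and lists were chosen with earlier results of these data known.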

Additional observations from a re-analysis of the deposited data

Results flagged for a closer look

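Single libraries stood apart from the rest of their population in 9 of 46 groups of 6 to 8 libraries. All lay on the high side, and most in sums of few wells. About 1 in 20 is flagged by chance only where values spread normally. Several groups held mostly zeros, such as Msx2 in DC0 with 6 of 8 libraries at 0, so no excess of flags was read from this count. Alx4 in DC1 had 214.8 CPM in library 7, from 3 wells and 7 UMIs, and the next library had 100.9 CPM. Irx1 in DC2 had 250.0 CPM in library 2, from 4 UMIs, with the next at 75.4 CPM, while the pooled DC2 level was 40.0 CPM.

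Irx3 in DC0 had 239.4 CPM in library 1, from 3 wells, with the next at 62.7 CPM, and that library also stood apart when the stages were summed, with 77.6 CPM and the next condensate library at 31.5 CPM. Osr2 in DC2 had 350.3 CPM in library 1, which is 1 UMI in a sum of 2855, with the next at 62.5 CPM. Osr2 in DC0 had 41.8 CPM in library 5, from 8 UMIs, with the next at 18.3 CPM.

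Msx2, which had few UMIs anywhere, had 39.9 CPM in DC0 of library 1 (1 UMI), 12.2 CPM in DC1 of library 6 (2 UMIs) and 62.5 CPM in DC2 of library 2 (1 UMI). The causes of these values were not tested.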

How the results depend on the processing

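In condensate against fibroblast, 7 members were called in edgeR, and Alx4, Prrx1, Irx1, En1, Osr1 and Osr2 were called in all 16 other settings run. Irx3 was called in 15, and Prrx2 in none, with a sign change in the shared run (-0.12). Libraries 1, 2 and 4 called 1097 genes, against 2226. The fits without the replicate block called 1779 genes in DC0 against fibroblast (1761 with library 9) against 1155, 16 in DC1 against DC0 (72 with library 9) against 42, and 1 member there in place of 2. Without the block Alx4 and Irx3 passed in DC0 against fibroblast (1.82 and -1.16), and in these comparisons En1 in DC1 against DC0 turned to -0.35 (-0.65 with library 9) and Irx3 in DC2 against DC1 to -0.35 with library 9.

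Stage calls moved with the filter, the libraries and the wells. In DC0 against fibroblast, filterByExpr gave 549 genes and 3 members, the shared run 619 genes, the other libraries 479 genes and 2 members, and at least 5 wells per sum 553 genes. In DC1 against DC0 these 4 settings gave 24, 16, 4 and 5 genes and 1, 1, 0 and 0 members, and leaving out 1 library at a time left 1 to 2 members. In DC2 against DC1 they gave 51, 34, 0 and 15 genes, and DESeq2 58, against 96. In DC2 against DC0, 701 genes passed, or 7.69% of those tested. filterByExpr, which tests fewer genes, called 364 (17.6%), and no filter, which tests more, 744 (3.96%). The shared run called 206 (2.28%), and the other libraries 60 higher and 47 lower (1.2%). Each of these but no filter called 1 member in place of 3. Leaving out 1 library at a time gave 3.6% to 7.92% there, with the lowest share, 328 genes and 1 member without library 8.

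Signs turned for members that were not called. In DC0 against fibroblast, Alx4 was at -0.017 without library 8, and Prrx2 at 0.041 under RLE, 0.015 in DESeq2 and under filterByExpr and 0.013 in the shared run. In DC1 against DC0, Prrx1 was at -0.14 with at least 5 wells, Prrx2 at -0.10 and -0.15 without libraries 1 and 4, -0.72 in the shared run and -0.20 without shallow wells, En1 at -0.041 in DESeq2, -0.66 without library 6 and -0.15 in the other libraries, and Osr1 at 0.18 and 0.04 without libraries 5 and 7, 0.31 in the other libraries and 0.62 with at least 5 wells. In DC2 against DC1, Prrx1 was at 0.070 with at least 5 wells, Prrx2 at -0.40 in the other libraries and -0.10 with at least 5 wells, Osr1 at 0.37 without library 6, and Osr2 at 0.29 in DESeq2 and 0.19 and 0.26 without libraries 4 and 8. In DC2 against DC0, Prrx1 was at 0.0014 in DESeq2.

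Leaving out 1 library at a time gave ranges of -0.017 to 1.58 for Alx4 in DC0 against fibroblast, -0.15 to 0.43 for Prrx2, -0.66 to 0.48 for En1 and -1.38 to 0.18 for Osr1 in DC1 against DC0, and -1.37 to 0.37 for Osr1 and -0.95 to 0.26 for Osr2 in DC2 against DC1. It gave ratio differences of 0.66 to 0.97 for Prrx1 over Prrx2 and -1.12 to -0.76 for Irx1 over Irx3, each with an exact permutation p of 0.0625, the smallest that 5 libraries allow, and adding 1 UMI gave 0.77 for Prrx1 over Prrx2. The cause was not tested in any of these. Sums of 2 to 8 wells limit every stage value outside libraries 8 and 9, and a zero in a sum of 2855 UMIs allows up to 1050.8 CPM. Library 8 has no fibroblasts, so its DC0 wells meet fibroblasts in the model only through the other libraries.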

Other observations

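Cofactors and other patterning factors also differed between condensate and fibroblast sums of libraries 1 to 6. TALE proteins are homeodomain partners of many patterning factors, and of 8 tested 3 rose and 1 fell (median log2 fold change 0.26, against -0.01 over all genes, of which 11.4% rose and 13.1% fell). Tgif1 and Meis3 rose by 1.69 and 1.18, and Meis2 had -1.73 (adjusted p = 8.65e-06, 0.00406 and 1.79e-05, edgeR). Of 5 T-box and bHLH factors tested, 3 rose and 1 fell (median 0.48): Tbx3 and Tbx18, T-box factors of embryonic mesenchyme, rose by 2.21 and 2.08, and the paralogs Twist2 and Twist1 had 0.48 and -0.41 (adjusted p = 0.000616 and 0.00578, edgeR).

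Of 10 tested genes from a wider list of homeobox and related zinc finger factors, 2 rose and 2 fell (median -0.12). Tshz3 and Cux1 rose by 1.92 and 1.08, and the large zinc finger homeobox genes Zfhx4 and Zfhx3 had -1.35 and -1.22 (adjusted p = 1.53e-08, 0.000755, 1.33e-05 and 0.00373, edgeR). The counts of these 3 lists were the same under RLE and in DESeq2.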
